A study of Homo sapiens with 6 samples.

Results

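Metallothioneins are small cysteine-rich proteins that bind zinc, copper and cadmium. In the liver they store zinc and take up reactive metal ions and radicals. The transcription factor MTF1 senses free zinc in the cell and binds metal response elements in the promoters of the MT1 and MT2 genes and of SLC30A1, which encodes a zinc exporter of the plasma membrane. Glucocorticoids and inflammatory signals are also known to raise metallothionein transcripts in liver cells. The 10 genes described here are 8 metallothionein genes (MT1B, MT1E, MT1F, MT1G, MT1H, MT1M, MT1X and MT2A), SLC30A1 and MTF1. They were followed in HepG2, a human hepatoma cell line. The members are all rows of the deposited table that the platform annotation gives a single symbol among these 10. A row is a transcript cluster, the set of probes that measures one transcript region. The rule gave 12 of the 19291 clusters tested, standing for 10 of 18372 genes, and 0 of the 12 were at 0. The genes were chosen with earlier results of this comparison known, so their differences are given as a description and no test of them is read.

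Human Gene 1.0 ST arrays of Affymetrix measured 3 samples labelled untreated and 3 labelled leaf-treated. Treated cells received the water extract of Barringtonia racemosa leaf (BLE) at 50 µg/ml for 24 h. Both groups were HepG2 in DMEM with foetal bovine serum, penicillin and streptomycin. No vehicle is named for the untreated cells, and no other agent for either group. The labels call the replicates biological but do not tie them to separate cultures, so the spread behind each p-value is that of these samples alone and may be technical. All 8 hepatocyte markers checked (ALB, AFP, APOA1, APOB, TF, TTR, SERPINA1 and FGB) were high, with mean log2 values of 7.82 to 11.3. The 378 olfactory receptor clusters, used as a stand-in for background, had 95th percentiles of 3.22 to 3.49 on the 6 arrays. Markers of squamous cell lines, of which 3 of 4 were measured, had medians of 3.64 to 3.72 on the untreated arrays and 3.69 to 4.16 on the BLE arrays. Those of fibroblasts (4 of 4) had medians of 3.22 to 3.35 and 3.24 to 3.70, and those of leukocytes (3 of 4) 2.87 to 3.21 and 3.12 to 3.41. The part of these differences in the results below was not tested. BLE array 2 was closer to the untreated arrays than to the other treated ones. Across the tested clusters it correlated at 0.992 to 0.993 with the untreated arrays and at 0.988 and 0.986 with BLE arrays 1 and 3, which correlated at 0.988 with each other. Clusters are not replicates, and these correlations only describe the arrays.

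The promoters are shown first because the metal response elements in them are what MTF1 binds. Sequences of the 250 bases before the gene start came from RefSeq (GRCh38.p14), where 6 of the 10 genes matched. MT1E, MT1F, MT1G and MT1M did not. The core of the element was searched as TGCACNC or TGCGCNC on both strands, and it is in capitals in the lines below. Shown are MT1X, one of the genes with the largest difference, MT2A and MT1H, where the difference was small or uneven, MT1B, whose group means lay 0.02 apart, and the exporter SLC30A1.
MT1X (chr16:56682220-56682469, plus strand): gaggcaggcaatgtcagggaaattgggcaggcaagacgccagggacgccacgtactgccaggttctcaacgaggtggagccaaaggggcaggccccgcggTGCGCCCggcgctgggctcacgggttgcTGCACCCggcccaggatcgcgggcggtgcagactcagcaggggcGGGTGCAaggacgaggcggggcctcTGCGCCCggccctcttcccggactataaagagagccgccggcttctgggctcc
MT2A (chr16:56608334-56608583, plus strand): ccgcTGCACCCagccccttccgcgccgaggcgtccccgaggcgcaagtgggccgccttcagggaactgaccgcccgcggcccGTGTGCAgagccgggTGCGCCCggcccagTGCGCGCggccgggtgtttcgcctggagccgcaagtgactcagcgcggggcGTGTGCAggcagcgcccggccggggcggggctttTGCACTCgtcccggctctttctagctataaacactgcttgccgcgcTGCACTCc
MT1H (chr16:56669564-56669813, plus strand): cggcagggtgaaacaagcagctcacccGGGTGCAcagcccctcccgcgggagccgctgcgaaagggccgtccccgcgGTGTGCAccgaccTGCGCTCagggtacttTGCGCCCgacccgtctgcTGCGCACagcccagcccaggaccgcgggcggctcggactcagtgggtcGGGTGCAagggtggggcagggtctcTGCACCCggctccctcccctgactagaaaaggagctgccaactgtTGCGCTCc
MT1B (chr16:56651636-56651885, plus strand): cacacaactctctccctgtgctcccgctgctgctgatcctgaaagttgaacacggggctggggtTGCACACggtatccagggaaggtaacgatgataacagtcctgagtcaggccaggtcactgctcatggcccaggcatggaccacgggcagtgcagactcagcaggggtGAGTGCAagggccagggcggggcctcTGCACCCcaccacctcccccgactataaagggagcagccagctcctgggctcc
SLC30A1 (chr1:211579162-211579411, minus strand): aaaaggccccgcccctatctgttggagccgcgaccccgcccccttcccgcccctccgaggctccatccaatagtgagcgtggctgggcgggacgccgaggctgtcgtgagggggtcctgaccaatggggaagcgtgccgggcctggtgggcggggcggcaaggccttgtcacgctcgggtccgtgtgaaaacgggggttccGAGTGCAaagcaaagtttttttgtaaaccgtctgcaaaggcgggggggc

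The cores were dense in the metallothionein promoters. There were 8 in MT1H, 7 in MT2A, 4 in MT1X and 3 in MT1B, with 0 pairs overlapping. Of 35116 promoters of the same length, 24.8% held at least 1 core, 1.58% at least 3, 0.37% at least 4 and 0.0313% at least 7. SLC30A1 held 1, on the other strand, and MTF1 held 0. One core lay at nearly the same place in the 4 metallothionein promoters, from base -53 to base -47 before the start in MT1B, MT1H and MT1X and from base -54 to base -48 in MT2A. A second, on the opposite strand, ran from base -78 to base -72 in MT1H and MT1X and from base -79 to base -73 in MT1B. The letters TATAAA were found once each in MT1B, MT1X and MT2A and in 10.7% of all promoters. An antioxidant response core, searched as TGACNNNGC on both strands, was present once each in MT1B, MT1X, MT2A and SLC30A1 and in 10.9% of all promoters. Among the other zinc transporters, 5 of 8 exporters and vesicle loaders and 5 of 12 importers with a promoter sequence held an MRE core, and SLC30A2 held 3. A match describes letters in this window and is not evidence of binding.

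The metallothionein transcripts were lower in BLE-treated cells, by very different amounts. Of the 10 metallothionein clusters 9 had a lower mean after BLE, and the median log2 difference was -0.28 where that of all 19291 clusters was 0.01. An identical pair of MT2A clusters is counted as 2 here, and with the pair counted once the median was -0.31. Many clusters were dim, and over the 8474 with a mean log2 value of at least 4, the members included, the median was -0.065. MT1F, MT1X, MT1G and MT1E differed most, at 50.1%, 59.2%, 59.9% and 70.4% of the untreated signal. MT2A and MT1M differed by less than 1.2 fold, and the MT1B means were 0.02 apart. A fitted difference below 0 was found for 46.9% of all clusters. In bulk RNA, fewer cells of a kind and less RNA per cell cannot be told apart. MT1 and MT2 coding sequences are close to one another, so that probes of one gene may take up the transcript of another, and this was not tested.

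MT1F, a widely made MT1 isoform, had log2 values of 8.011, 7.808 and 7.954 on the untreated arrays and 7.172, 6.607 and 7.003 on BLE arrays 1, 2 and 3. Every treated value lay at least 0.64 below the lowest untreated one, and BLE array 2 was the lowest. The means were 7.92 ± 0.10 (SD, n = 3) and 6.93 ± 0.29 (SD, n = 3), a log2 difference of -0.997 (standard error 0.15). It ranked 14 from the lowest of all clusters tested.

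MT1X, another MT1 isoform, gave 6.85, 6.75 and 6.63 without treatment and 6.26, 6.13 and 5.57 with BLE. Here BLE array 3 was the lowest, and the groups were apart by 0.37. Its means of 6.74 ± 0.11 and 5.99 ± 0.37 (SD, n = 3 each) differed by -0.76 (standard error 0.18), at rank 43.

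For MT1G the untreated values were 8.62, 8.45 and 8.18, and those after BLE 8.14, 7.38 and 7.51. BLE array 1 was only 0.03 below untreated array 3, so that the separation was narrow and came from the other 2 treated arrays. The log2 difference was -0.74 (standard error 0.22), from 8.42 ± 0.22 to 7.68 ± 0.41 (SD, n = 3 each).

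MT1E showed the same arrangement, with 8.68, 8.88 and 8.58 in untreated cells and 8.55, 8.06 and 8.01 after BLE. BLE array 1 again lay close to the untreated range, at a gap of 0.02. The difference between 8.71 ± 0.15 and 8.21 ± 0.30 (SD, n = 3 each) was -0.51 (standard error 0.16), or 1.42 fold lower.

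MT1M and MT2A were lower by small amounts, without overlap between the groups. MT1M measured 7.37, 7.39 and 7.29 on the untreated and 7.17, 7.03 and 7.08 on the BLE arrays, a log2 difference of -0.25 (standard error 0.07). MT2A, the form that most tissues make in quantity, is represented by 3 clusters, of which 1 pair holds identical values on every array and is counted here as 1 measurement. Its first cluster gave 10.63, 10.58 and 10.44 against 10.43, 10.43 and 10.38, with a difference of -0.14 (standard error 0.07) and a gap of 0.01 between the groups. The identical pair gave 9.20, 9.22 and 9.20 against 9.08, 9.02 and 8.97, a difference of -0.18 (standard error 0.06). The platform annotation names this pair MT2A, but where its probes lie in the genome was not checked. Whether the pair measures MT2A itself or a similar sequence is therefore not known. The MT2A measurements were at 91.0% and 88.4% of the untreated signal. After quantile normalization these differences shrank to -0.06 and -0.07, and that of MT1M to -0.13.

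MT1H and MT1B were close to background, and their groups overlapped. MT1H had values of 4.44, 4.59 and 4.19 in untreated cells and 4.21, 3.71 and 4.36 after BLE. Only BLE array 2 fell outside the untreated range, and the difference of -0.31 (standard error 0.19) became -0.11 without that array. MT1B stayed between 4.05 and 4.14 on all 6 arrays, at 4.06 ± 0.01 and 4.08 ± 0.05 (SD, n = 3 each), and 2 arrays, untreated array 1 and BLE array 2, held exactly the same value. Its difference of 0.02 (standard error 0.06) turned to -0.02 after quantile normalization and to -0.04 after centring on the median. On each array MT1B was above the 95th percentile of the olfactory receptor clusters by less than 1 log2 unit.

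The groups overlapped for the zinc exporter SLC30A1 and for the zinc sensor MTF1. SLC30A1 gave 6.33, 6.01 and 6.39 without treatment and 5.79, 6.21 and 5.89 with BLE, so that BLE array 2 lay within the untreated range and the other 2 below it. The difference was -0.28 (standard error 0.15), and -0.04 with array 2 as the only BLE array. MTF1 measured 5.86, 5.65 and 5.71 in untreated cells and 5.81, 5.92 and 5.48 after BLE, with overlapping groups. Its difference of -0.01 (standard error 0.13) had either sign under other settings, from -0.10 without BLE array 2 to 0.17 with array 2 as the only BLE array.

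**Figure D1:**
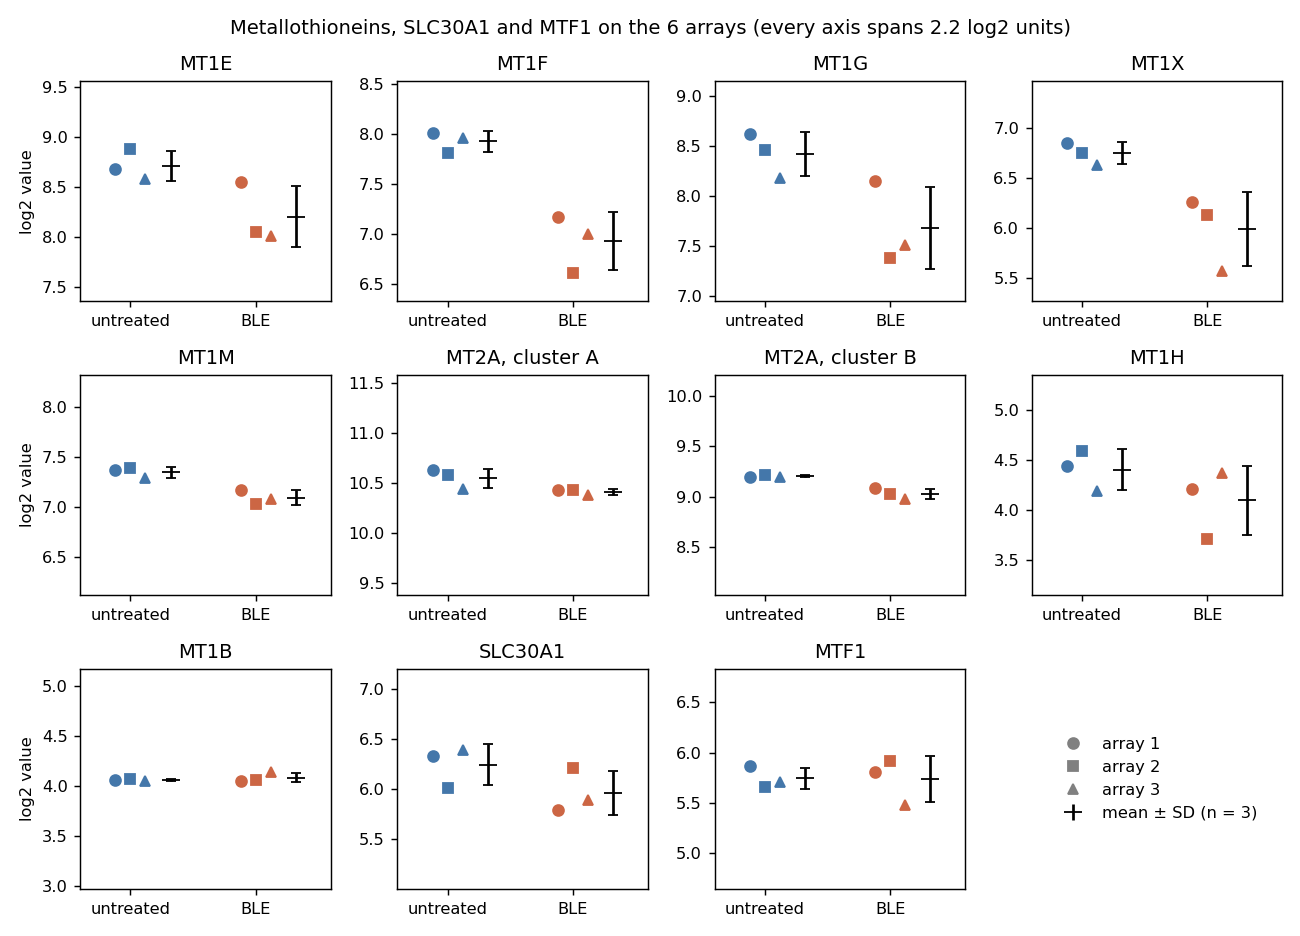
Log2 values of each member cluster on the 3 untreated and 3 BLE arrays, with a symbol for each array number and the mean and SD as bars (n = 3). The groups are apart in the panels of MT1E, MT1F, MT1G, MT1X, MT1M and both MT2A measurements (cluster B is the pair with identical values) and overlap in those of MT1H, MT1B, SLC30A1 and MTF1.

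All BLE arrays lay below all untreated arrays in 8 of the 12 member clusters, or 7 of 11 with the identical pair counted once, where this held for 7.41% of all tested clusters, and for 6.14% in the opposite direction. The thresholds of the series' design are an unadjusted p under 0.05 and a change of at least 1.5 fold. On the lower side 3 member clusters, MT1F, MT1X and MT1G, were past them, and 0.57% of all clusters were (0.27% on the higher side). These 3 had mean log2 values above 6, and of the 3413 clusters with a mean of at least 6, 1.49% were past the thresholds on the lower side. The same 3 were at least 1.5 fold lower whatever the p, as were 0.653% of all clusters. Just inside this limit was MT1G at 1.67 fold, and just outside it MT1E at 1.42 fold. After centring each array on its median, 189 clusters were lower and 30 higher past these thresholds, against 110 and 52 as deposited. By the analysis of variance that the series' design names, 2 members, MT1F and MT1X, were past them and MT1G was not. MT1G was also not past them without untreated array 1 or after quantile normalization without BLE array 2, and without BLE array 3 only MT1F of the members was. After Benjamini-Hochberg adjustment over all clusters, 0 of 12 were called by limma, beside 0.00518% of all clusters, and 0 by the analysis of variance. At an unadjusted p under 0.05 from limma, 7 of the 12 were lower and 0 higher, beside 5.9% and 3.87% of all clusters. With the identical pair counted once, 6 of 11 were lower. As the members were chosen on this comparison, nothing is read from these counts.

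**Figure D2:**
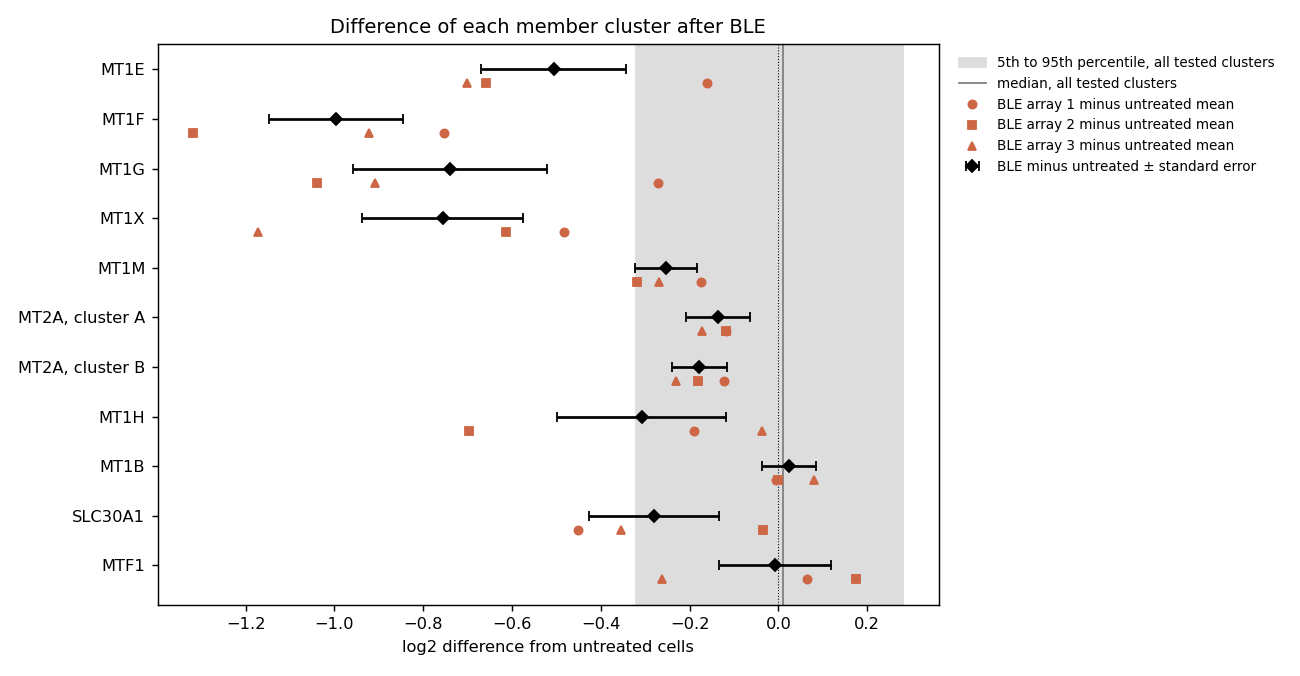
Log2 difference of each member cluster, BLE minus untreated (diamonds, with the standard error), and of each BLE array from the untreated mean (symbols by array). The grey band runs from the 5th to the 95th percentile of all tested clusters (-0.32 to 0.28). MT1F, MT1X, MT1G and MT1E lie to the left of the band and the other 7 within it.

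The treated arrays differed in how low the metallothioneins were. Relative to the untreated mean, the median over the 10 metallothionein clusters was -0.17 on BLE array 1, -0.47 on array 2 and -0.25 on array 3. All 10, with the identical MT2A pair counted as 2, were below the untreated mean on arrays 1 and 2, and 9 on array 3. MT1B was only just below it, at -0.006 on array 1 and -0.002 on array 2. For MT1E, MT1F, MT1G, MT1X and MT1M, array 1 held the highest of the 3 treated values. BLE array 2, which resembled the untreated arrays most over all clusters, gave the lowest values of MT1F, MT1G, MT1H and MT1M. Its SLC30A1 value, in contrast, was -0.04 from the untreated mean. On the same scale the median over all clusters lay between 0 and 0.0019 on the 3 BLE arrays.

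The metallothionein genes stand side by side on chromosome 16, which allows their differences to be read along the chromosome in the order given by RefSeq. The differences were uneven along this row. For MT2A, MT1E and MT1M they were -0.14, -0.51 and -0.25, and MT1B in the middle was at 0.02. MT1F, MT1G, MT1H and MT1X at the far end were at -0.997, -0.74, -0.31 and -0.76. The 6 nearest measured protein-coding genes on each side, named by position, had a median difference of 0.05, and 5 of the 12 were below 0. None of the 12 was called after adjustment by limma or past the thresholds of the series' design. The groups did not overlap for 3 of them, 1 lower and 2 higher, beside 7.41% and 6.14% of all clusters. CES1, a carboxylesterase of the liver and the outermost gene on the MT4 side, had the lowest difference among them at -0.54 (standard error 0.13, adjusted p = 0.38 from limma). NUP93, a nuclear pore protein beside MT1X, was at -0.16 (adjusted p = 0.53 from limma), and HERPUD1, an endoplasmic reticulum stress gene beyond it, at 0.26 (adjusted p = 0.49 from limma).

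**Figure D3:**
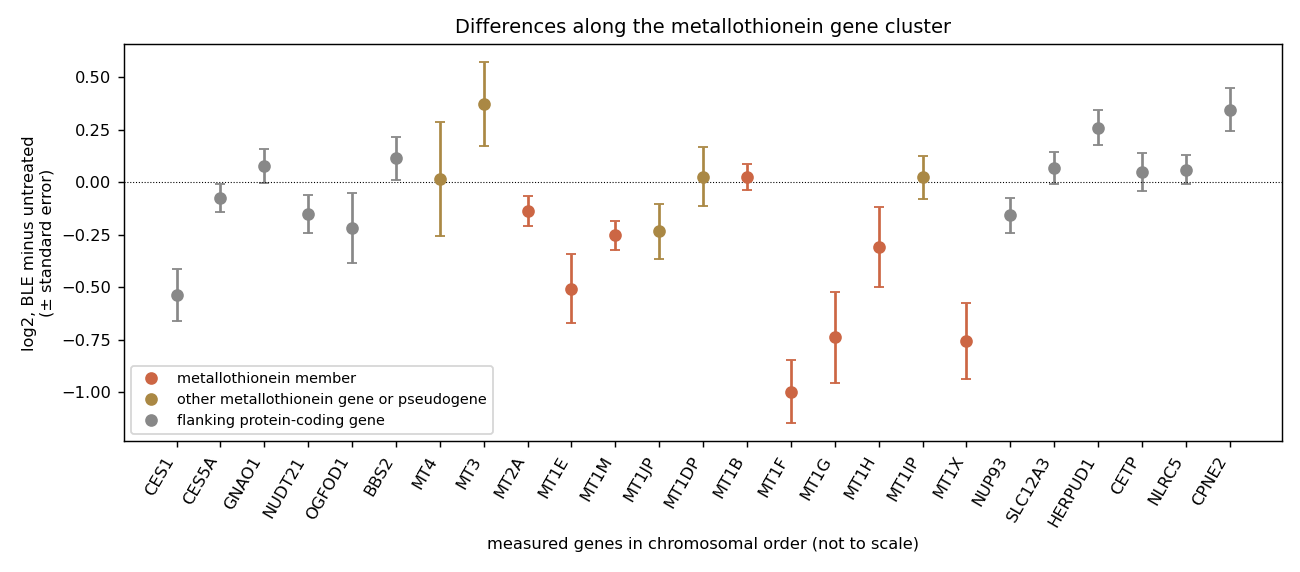
Log2 difference, BLE minus untreated, with its standard error for each measured gene along the metallothionein row of chromosome 16, in order and not to scale (a gene with several clusters is shown by its brightest). The lowest values in the row are those of MT1F, MT1G and MT1X, and the row lies between flanking genes of which all but CES1 lie between -0.22 and 0.34.

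Of 13 other metallothionein genes and pseudogenes, 7 were measured by a cluster of their own. Their median difference was 0.02, with 2 of 7 below 0 and 1 lower without overlap of the groups, which held for 7.41% of all clusters. The pseudogene MT1P3 had an untreated mean of 6.03 ± 0.03 (SD, n = 3) and values of 5.80, 5.94 and 5.53 after BLE, a difference of -0.28 (standard error 0.11, adjusted p = 0.51 from limma) with no overlap. MT3, the form known from the brain, was at 0.37 (standard error 0.20, adjusted p = 0.54 from limma), with overlapping groups. MT1JP, at -0.23, MT1HL1, at 0.16, and MT1DP, at 0.03, did not pass the test, and neither did MT1IP, at 0.02, and MT4, at 0.01. MT1L shares its cluster with NUTF2, a nuclear transport factor, and was not tested. That shared cluster measured 7.09, 7.16 and 7.13 on the untreated and 6.86, 6.71 and 6.92 on the BLE arrays, a difference of -0.29.

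Other genes of metal handling and of the related responses were described by list. In all 7 lists together, the other metallothioneins included, 62 of 72 genes were measured. None was called by limma after adjustment, 0 were called by that analysis of variance, and 4 lower and 5 higher had an unadjusted p under 0.05, beside 5.9% and 3.87% of all clusters. The zinc exporters and vesicle loaders other than SLC30A1 (9 of 9 measured) had a median difference of -0.04, within a range of -0.18 to 0.18, and none was past the thresholds of the series' design. SLC30A7, which loads zinc into the Golgi, was at 0.18, SLC30A10, a manganese exporter, at -0.10 and SLC30A9 at -0.18 (adjusted p = 0.52, 0.69 and 0.70 from limma). The zinc importers (14 of 14 measured) had a median of -0.01. SLC39A3 in this list had values of 4.04, 4.19 and 4.25 against 4.73, 4.39 and 4.70, a difference of 0.44 (standard error 0.11, adjusted p = 0.41 from limma) without overlap. SLC39A10, an importer reported to be repressed by MTF1, was at 0.20 and SLC39A2 at -0.12 (adjusted p = 0.51 and 0.59 from limma). The groups did not overlap for SLC39A10 and SLC39A2 either. Of the 14 importers, 1 was lower and 2 were higher without overlap, beside 7.41% and 6.14% of all clusters. SLC39A14, the importer of liver in inflammation, stood at -0.18 with overlapping groups.

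Among copper handling genes (11 of 12 measured, median -0.02), CP, which encodes ceruloplasmin, the copper protein of plasma, gave 8.02, 7.56 and 7.63 untreated and 8.25, 8.37 and 8.45 after BLE. Every treated value was above every untreated one. Its difference of 0.62 (standard error 0.13, adjusted p = 0.38 from limma) was past the thresholds of the series' design, as 0.84% of all clusters were in either direction, but was not called after adjustment, and it was not past the thresholds after centring, without untreated array 2 or 3, without BLE array 3, or with BLE array 2 alone. The low-affinity copper transporter SLC31A2 was at 0.26, and SCO1, a copper chaperone of cytochrome oxidase, at -0.34 (adjusted p = 0.51 for both from limma). The copper exporters ATP7A and ATP7B were at 0.06 and -0.09, with overlapping groups.

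Of the 7 genes named in studies of MTF1, the hepcidin gene HAMP was past the thresholds of the series' design, with values of 6.45, 6.71 and 6.72 untreated and 4.25, 4.82 and 4.45 after BLE and a difference of -2.12 (adjusted p = 0.055 from limma). Over the other settings its adjusted p ran from 0.012, without dim clusters, to 0.60, without untreated array 3. The median of this list was -0.16, and NDRG1 and SELENOW were at 0.45 and -0.24 (adjusted p = 0.51 for both from limma). The glucocorticoid response list (9 of 10 measured) had a median of 0.10 with 1 of 9 below 0. In it DUSP1, a phosphatase, was at 0.34 with values of 5.59, 5.44 and 5.51 against 5.70, 5.97 and 5.87 (adjusted p = 0.44 from limma). SGK1, a kinase, was at 0.37 and the transcription factor ZBTB16 at 0.21 (adjusted p = 0.51 and 0.62 from limma). Genes of the response to metal stress (6 of 8 measured) had a median of -0.16. HSPH1, a heat shock protein, was at -0.23, SRXN1, a sulphiredoxin, at -0.38 and DNAJB1, a chaperone, at -0.33 (adjusted p = 0.44, 0.51 and 0.56 from limma). HMOX1, the heme oxygenase that cadmium induces, stood at -0.09 with overlapping groups. These lists, like the members, were described by their counts and medians and were not tested as sets.

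**Figure D4:**
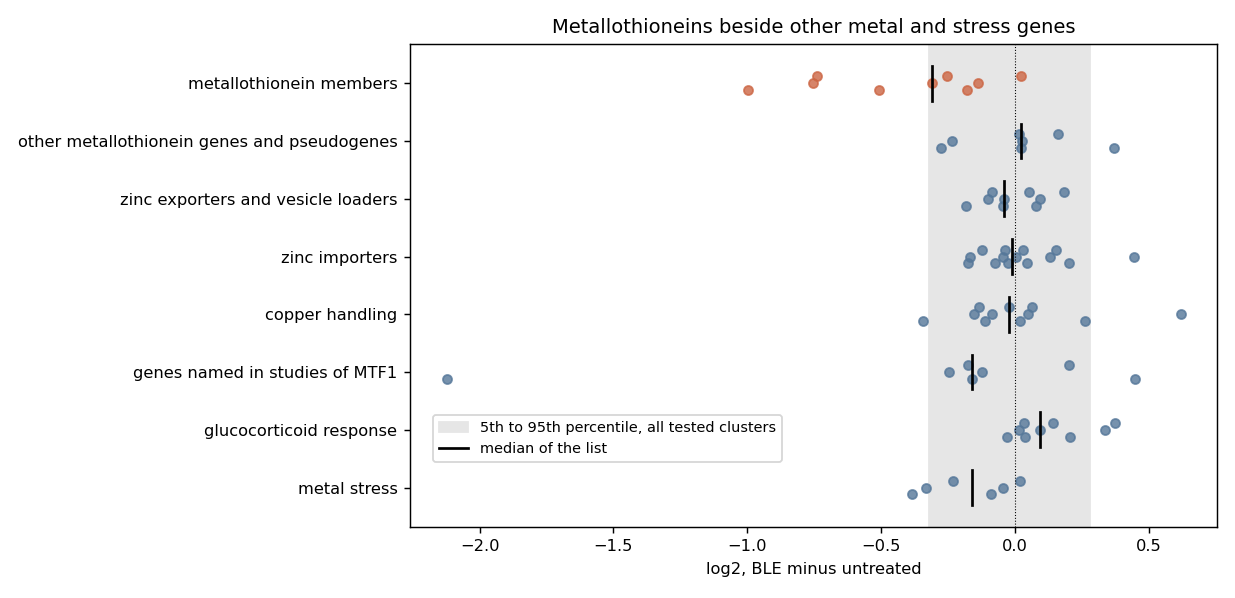
Log2 difference, BLE minus untreated, of each measured gene by list, with the median of the list as a bar and the 5th to 95th percentile of all tested clusters in grey. The metallothionein members are plotted with the identical MT2A pair once (median -0.31), and the medians of the other 7 lists lie between -0.16 and 0.10.

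Some genes outside these lists followed the mean metallothionein profile closely. Likeness was measured as the root mean square difference between the deviations of a cluster from its own mean and the mean deviations of the 10 metallothionein clusters over the 6 arrays, for 5386 clusters with a mean log2 value of at least 5. The closest were NDUFA5, a subunit of respiratory complex I (0.05), ANP32A, a nuclear phosphoprotein (0.07), UQCC2, an assembly factor of complex III (0.07), MARCHF5, a mitochondrial ubiquitin ligase (0.07), and MATR3, a nuclear matrix protein (0.08), where the median over all compared was 0.24. Among the members themselves this value was 0.09 for MT1M, 0.13 for MT1E and 0.13 for the MT2A pair, which were closer to the mean profile than most. The mean profile contains the metallothionein members, with the identical MT2A pair counted as 2, so part of this closeness is built in. The value was 0.24 for MT1B and MT1G, 0.26 for MT1X and 0.33 for MT1F, at about the median over all compared or above it. SLC30A1 and MTF1 were at 0.25 and 0.26. The measure is not scaled, so a change of the same shape but another size also raises it. The log2 differences were 0.02 for MT1B, -0.74 for MT1G, -0.76 for MT1X and -0.997 for MT1F. A high value therefore does not show a different pattern over the arrays. As 6 arrays in 2 groups allow many clusters to fall together, this is a description of like profiles.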

How the data were processed

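Biotin-labelled RNA of 3 untreated and 3 BLE-treated HepG2 samples was measured on Human Gene 1.0 ST arrays (Affymetrix). The deposited values are log2 signals, 1 column an array. GCOS, Partek and RMA, which subtracts background, normalizes between arrays and summarises probes, are listed by the submitters' processing notes. No version, option or genome build is stated. Over the tested clusters the array medians were 3.71, 3.74 and 3.74 untreated and 3.81, 3.75 and 3.83 after BLE. Quantile normalization over all rows above 0 moved the values, so the columns do not share 1 distribution. The 4468 of 33297 rows at exactly 0 on every array were left out. Rows were named through the platform annotation, where 19291 of the rest had 1 symbol, 1735 several and 7803 none. The number of arrays limits the precision.

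All 19291 clusters were fitted with limma 3.58.1 in R 4.3.3 (lmFit, eBayes, BLE minus untreated, no covariate), with Benjamini-Hochberg adjustment over all of them. The fit was tested on simulated data. In lists a gene was its cluster with the highest mean. Named were the members, the other metallothioneins, genes past a threshold or up to 3 with the smallest p per list (SLC39A14, ATP7A, ATP7B and HMOX1 were added after their values were seen), the 5 profiles most like the metallothioneins, and flanking genes by position, of which CES1, NUP93 and HERPUD1 were picked once seen. The members and lists were chosen with earlier results of these data known. Alternatives were other normalizations, filters, variance models, array weights, the analysis of variance named in the series' design, the replicate number as a block, averaged clusters and left-out arrays.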

Additional observations from a re-analysis of the deposited data

How the results depend on the processing

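The clusters of MT1E, MT1F, MT1G, MT1H, MT1M, MT1X, MT2A and SLC30A1 were lower after BLE in every setting run, and no member was called after adjustment in any. For some of them little more than the sign was kept. After quantile normalization without BLE array 2, MT1M was at -0.02 and the MT2A measurements were at -0.04. All settings reuse the same 6 arrays, so a shared sign is no measure of stability. Of 215 member values under other settings, 195 moved by less than 1 SD between replicates. Settings that change only the variance model or the clusters tested cannot move these values. Leaving out 1 of the 3 arrays of a group cannot move them by 1 SD. The count is therefore no measure of how stable the differences are. The median over metallothionein clusters, -0.28, was -0.47 when BLE was array 2 alone (its spread taken from the untreated arrays), -0.41 with the clusters of a gene averaged and -0.092 after quantile normalization without BLE array 2, a setting added after seeing the data. That over all member clusters, -0.27, was -0.15 after quantile normalization, -0.33 after centring on the median and -0.092 in the added setting. Leaving out 1 array at a time gave -0.35 to -0.20 for metallothioneins and -0.25 to -0.20 for members, 1 (without BLE array 3) to 4 (without BLE array 1) members past the series' thresholds, and 5 with BLE array 2 alone. The 162 clusters past them were 250 with all rows above 0, 101 by the methods' analysis of variance and 356 in the added setting, and 111 to 490 with 1 array left out (490 without BLE array 2).

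Clusters called after adjustment, 1 as reported, were 8 after quantile normalization, 3 after centring and with array weights, 4 without dim clusters, 2 with all rows, with a trend and robust fit and with averaged clusters, and 13 in the added setting. They were 0 by the methods' analysis of variance, with BLE array 2 alone and without any 1 array (0 to 0). Deviations of same-numbered arrays from their group means correlated at -0.11, -0.18 and 0.12 over clusters. Those of untreated array 1 and BLE array 2 correlated at 0.27. With 3 arrays a group, such values cannot show whether the replicates were paired. The replicate number as a block gave 0 called clusters and 3 members past the series' thresholds. Among listed genes, HAMP was the 1 called after adjustment with quantile normalization, centring, no dim clusters, the trend and robust fit, array weights, averaged clusters and the added setting. Listed genes past the series' thresholds, 2 as reported, were 1 after centring, where CP was not, 3 in the added setting, where MT3 was, and 1 to 2 with 1 array left out. Without BLE array 3 the 2 were HAMP and NDRG1. The causes were not tested. Without detection calls, a change of MT1B or MT1H near background is hard to measure.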
